A study of Mus musculus with 118 samples.

Results

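The 4 S1 L4 cells in which no Sst read was counted were set beside the 34 S1 L4 cells with Sst reads. All were tdTomato-labelled cells of SOM-Cre/Ai9 mice, the line in which Cre is driven from the Sst gene (S1, primary somatosensory cortex). The series profiled single cells by Patch-seq, in which a neuron is recorded with a patch pipette, its cytosol is drawn into the pipette, and the RNA is sequenced. It holds 39 cells of S1 L4 and 79 cells of S1 L5 and of L4 and L5 of primary visual cortex (V1), from adult male and female mice without treatment. Of the 39 cells labelled S1 L4, 38 had reads for at least 1500 genes and no more Slc17a7 (the glutamatergic marker) than Gad1 plus Gad2 (the enzymes that make GABA), and the 1 cell left out had 418 genes and a total of 580 counts. The groups were chosen by their measured Sst count, 0 in 4 cells and above 0 in 34, so the Sst difference is given only as a description. None of the 42 V1 L4, 17 V1 L5 or 16 S1 L5 cells kept by the same limits had an Sst count of 0. Ai9 reports Cre activity at any earlier time in the cell's history, and the tables hold no tdTomato or Cre entry with which the label itself could be read.

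The labels name no animal, so each group counts as 1 sample and no p-value was computed. The dates in the labels, taken as recording days, gave 1 Sst-zero cell on each of days 2, 3, 4 and 5, and the cells are named by these days. On the same days there were 4, 6, 3 and 2 Sst-positive S1 L4 cells. Days 1 to 6 formed the first recording series, and days 7 to 9, at later dates, the second. All 4 Sst-zero cells were of the first, while 9, 2 and 7 Sst-positive S1 L4 cells were of days 7, 8 and 9. Differences from all Sst-positive S1 L4 cells thus mix the 2 series, and same-day differences do not. Each Sst-zero cell was therefore also set against the Sst-positive cells of its own day, and the SD over the 4 days is the spread given below. Days may share an animal.

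Cortical interneurons that express the calcium-binding protein parvalbumin (Pvalb) and those that express the peptide somatostatin (Sst) are both born in the medial ganglionic eminence. Parvalbumin cells fire fast, narrow action potentials, for which they use potassium channels of the Kv3 family, and they contact the soma and proximal dendrites or the axon initial segment of their targets. Somatostatin cells mostly contact dendrites, many carry further neuropeptides, and in L4 of S1 many send their axon within that layer.

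The 100 bases before the annotated start of Sst and of Pvalb are shown because the cells were divided by Sst and Pvalb is the marker read beside it (RefSeq, GRCm38.p6, both on the minus strand and written 5′ to 3′). Capitals mark TGACGTCA, the letters of the cAMP response element, which reads the same on both strands.
Sst, chr16:23890845-23890944: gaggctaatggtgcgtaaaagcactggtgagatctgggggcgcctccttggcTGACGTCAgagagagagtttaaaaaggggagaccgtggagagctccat
Pvalb, chr15:78206401-78206500: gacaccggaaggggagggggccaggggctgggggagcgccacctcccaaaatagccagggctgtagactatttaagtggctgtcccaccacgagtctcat
Pvalb, second annotated start, chr15:78204238-78204337: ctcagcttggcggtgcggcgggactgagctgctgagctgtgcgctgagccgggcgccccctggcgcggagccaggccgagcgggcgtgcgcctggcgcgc
The RefSeq start of Sst, at 23890844, lies inside the longer span that GENCODE gives the gene below, so this window overlaps that span. The letters begin 48 bases before the Sst start and are in neither Pvalb window. They occur in 379 of 32851 windows of the same length (1.15%), and the match is a description of the sequence only.

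The Sst-zero cells were not the cells with the fewest detected genes. Their totals were 1113591, 1197275, 2889474 and 307046 counts on days 2, 3, 4 and 5, and the Sst-positive cells ranged from 499521 to 3295232, with a median of 1199868.5. The day 5 cell was thus shallower than every Sst-positive cell. Reads were counted for 5951, 6425, 7394 and 5832 genes in the Sst-zero cells, against 2792 to 8527 (median 6648.5) in the Sst-positive cells. With every cell thinned to 250000 reads, the day 5 cell still had 5734 genes, within the range of 2547 to 7736 of the Sst-positive cells. A count of 0 allows 2.69, 2.51, 1.04 and 9.77 CPM (counts per 1000000 counts of the cell) in these 4 cells, as 3 counts of the total, and covers counting error only. The closest of all pairs of these cells had a Pearson r of 0.722 over log2 counts, so no library looked like a copy of another.

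In the Sst-zero cells Sst (chr16:23889573-23890958, GRCm38) had 0 counts and Pvalb (chr15:78191114-78206400) was counted in each. In the Sst-positive cells Sst ranged from 42.6 to 2382 CPM, with a median of 1007 CPM. The lowest Sst-positive cell, from day 7, had 22 Sst counts and the next had 225, so no kept cell lay between 0 and 22 counts. That lowest cell had 60.1 CPM of Pvalb, and also 79.5 CPM of Grin3a, 184 CPM of Npy and 38.8 CPM of Elfn1.

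Pvalb stood at 758, 502, 921 and 94.4 CPM on days 2, 3, 4 and 5, from 844, 601, 2662 and 29 counts. Among the Sst-positive cells it was counted in 18 of 34 (52.9%), with a median of 1.46 and a highest value of 257 CPM. The Sst-zero cells of days 2, 3 and 4 lay above every Sst-positive cell, and 4 Sst-positive cells reached the day 5 cell or more. The Sst-positive cell with 257 CPM of Pvalb was from day 2 and had 262 CPM of Sst, 1.35 CPM of Cox6a2 and no Erbb4 reads. Elsewhere the highest Pvalb values were 161.7 CPM (V1 L4), 9.29 CPM (V1 L5) and 115.7 CPM (S1 L5). Reads of Pvalb were found in 10 of 42 V1 L4 cells (23.8%), 1 of 17 V1 L5 cells (5.88%) and 7 of 16 S1 L5 cells (43.8%).

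**Figure D1:**
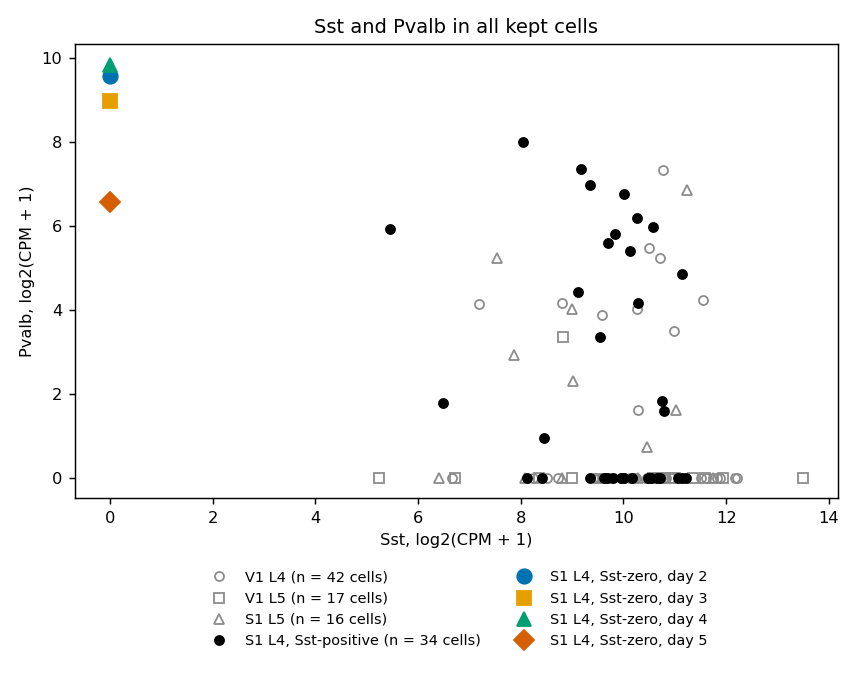
Pvalb against Sst, each as log2(CPM + 1), with 1 point per kept cell of the series. The 4 Sst-zero S1 L4 cells stand at 0 on the Sst axis, 3 of them with more Pvalb than any other cell, and the day 5 cell at 94.4 CPM lies within the range of the Sst-positive S1 L4 cells (black).

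All of these cells had reads of Gad1 and Gad2, but the Gad2 levels differed. Both genes and Slc17a7 were part of the rule that kept the cells, so their values are a description only. Gad1 stood at 3556, 1503, 5923 and 1876 CPM in the Sst-zero cells and at 262 to 3417 CPM (median 1712) in the Sst-positive cells. The mean difference in Gad1 within days was 1.11 ± 0.46 on the log2(CPM + 1) scale (SD over 4 days), with the 2 groups overlapping. Gad2 had 137.4, 186, 564 and 22.8 CPM against 112.4 to 2975 (median 1075), a within-day difference of -2.61 ± 2.05 that was negative on each day. Slc32a1, the transporter that loads GABA into vesicles, had 81.7, 1.67, 61.9 and 84.7 CPM against 0 to 298 (median 87.2). Slc17a7 had 0, 15.03, 0 and 6.51 CPM, against at most 110.4 CPM in a Sst-positive cell.

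Over all genes, the mean of log2(CPM + 1) in the Sst-zero cells minus that in the Sst-positive cells was at least 2 for 1194 of the 10502 genes past the filter on low counts (11.4%) and at most -2 for 745 (7.09%). The median difference over these genes was 0.14. Set against cells of the same day, 482 genes (4.59%) had the same sign on each day with a mean of at least 2, and 435 (4.14%) had the same sign on each day with a mean of at most -2. On a scale of log2(CPM + 10) the first 2 shares were 1.92 and 1.01%, and with the RPKM values 6.83 and 3.61%. By both rules together, 401 genes were higher and 316 lower. Every Sst-zero cell lay above every Sst-positive S1 L4 cell for 2 genes (0.019%), Cox6a2 and Hpca, and below every one for 1 gene (0.00952%), Sst itself. Means of 4 single cells carry much cell-to-cell spread, and these shares are the background for each count of list members below.

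How far these calls carried to a cell not used in them was read by leaving out each Sst-zero cell and every cell of its day. Of the 1323 to 1656 genes higher in the other 3 Sst-zero cells, the held-out cell stood nearer to their mean than to the Sst-positive mean for 44.7, 45.3, 57.6 and 37.6% on days 2, 3, 4 and 5. The Sst-positive cells of the held-out day gave 23.6 to 53.0, 27.8 to 54.2, 36.7 to 49.6 and 27.2 to 54.3%. The day 4 cell alone lay above all of its day's Sst-positive cells. Of the 907 to 1143 lower genes, the held-out cells gave 40.9 to 54.8%, within the range of their day's Sst-positive cells in all 4 cases. Apart from the higher genes on day 4, the held-out cell was thus no nearer to the other Sst-zero cells than the nearest Sst-positive cell of its day. Most genes named below belong to a list, had the same sign on each day or stood highest in a given cell.

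Of 13 genes known from parvalbumin interneurons, read with no filter on low counts, 9 were higher by a mean of at least 2 and none was lower, beside 7.99% higher and 4.77% lower among the 15596 genes other than Sst with a read in the 38 cells. Their median difference was 2.59, beside -0.08. The filter on low counts was passed by 9 of the 13, and 6 of these were higher (Pvalb, Kcnc1, Cox6a2, Ppargc1a, Erbb4 and Nefh), with Cplx1 added within days. Cox6a2 and Erbb4 passed only because of the Sst-zero cells, so nothing is read from the count over the 9. Counts above 0 were found for 12, 11, 11 and 10 of the 13 genes in the Sst-zero cells and for 2 to 8 (median 6.5) in the Sst-positive cells, so the number of detected members did not overlap. The summed level of the list was 7354, 4960, 8086 and 3612 CPM against 482 to 6023 (median 2603), and here the groups overlapped.

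Cox6a2 (chr7:128205435-128206387), the muscle and heart form of a cytochrome c oxidase subunit, had 43.1, 141.2, 55.4 and 22.8 CPM in the Sst-zero cells. It was counted in 3 of 34 Sst-positive cells, with a highest value of 9.41 CPM, below the lowest Sst-zero cell. In the other areas and layers at most 18.4 CPM was seen, in S1 L5. The within-day difference was 5.67 ± 1.11, and the day 5 value rests on 7 counts.

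Hpca (chr4:129111570-129122036), which encodes the calcium sensor hippocalcin, was the other gene with no overlap. The Sst-zero cells had 747, 256, 450 and 257 CPM. Among Sst-positive S1 L4 cells 18 of 34 had reads, with a median of 2.02 and a highest value of 133.1 CPM. Elsewhere Sst-positive cells reached 260.1 CPM (V1 L4), 142.2 CPM (V1 L5) and 351.3 CPM (S1 L5). The V1 L4 and S1 L5 maxima exceed the Sst-zero cells at 256 and 257 CPM, so the lack of overlap holds within S1 L4 only. The within-day difference was 5.80 ± 1.67. Exons of Cox6a2 overlap Itgad and those of Hpca overlap Tmem54 on the opposite strand, and the libraries do not mark strand.

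Erbb4 (chr1:68032186-69108059), the neuregulin receptor known to promote excitatory synapses onto parvalbumin cells, had the largest positive difference among genes with the same sign on each day, 7.27. It stood at 45.8, 450.2, 244 and 205 CPM, and was counted in 2 of 34 Sst-positive cells, at most at 91.4 CPM. That cell was the only Sst-positive cell to reach the lowest Sst-zero cell. Sst-positive cells elsewhere did carry Erbb4. It was counted in 11 of 42 V1 L4, 8 of 17 V1 L5 and 8 of 16 S1 L5 cells, up to 701 CPM.

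Kcnc1 (chr7:46396497-46438704), the Kv3.1 potassium channel, had 824, 1426, 895 and 443 CPM against 0 to 814 (median 306) in the Sst-positive cells. Those of days 2, 3 and 4 lay above all Sst-positive cells, while 6 Sst-positive cells reached the day 5 cell. The metabolic regulator Ppargc1a had 354, 296, 519 and 91.2 CPM against 0 to 564 (median 98.4), and the heavy neurofilament Nefh had 160.7, 148.7, 246 and 326 CPM against 0 to 682 (median 62.6). Both therefore overlapped between groups. Cplx1, a complexin of the release machinery, had 3716, 1386, 3906 and 811 CPM against 0 to 4173 (median 1404), again with overlap.

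Other genes of the same list were found in part of the Sst-zero cells and in no Sst-positive cell. Pthlh, a parathyroid hormone-like peptide, had 22.4, 37.6, 7.96 and 0 CPM, and 0 of 34 Sst-positive cells had a read. Syt2, the fast calcium sensor of release at many parvalbumin terminals, had 0, 9.19, 129.4 and 0 CPM, again with 0 of 34. The tachykinin precursor Tac1 had 572 counts, 514 CPM, in the day 2 cell and 0 in the others and in all 34. Pooled over the group and set against the limit for a count of 0 over the 34 cells (0.0625 CPM), these values were at least 270.3-fold higher for Pthlh, at least 1119-fold for Syt2 and at least 1662-fold for Tac1, though the last 2 rest on 2 cells and 1 cell.

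**Figure D2:**
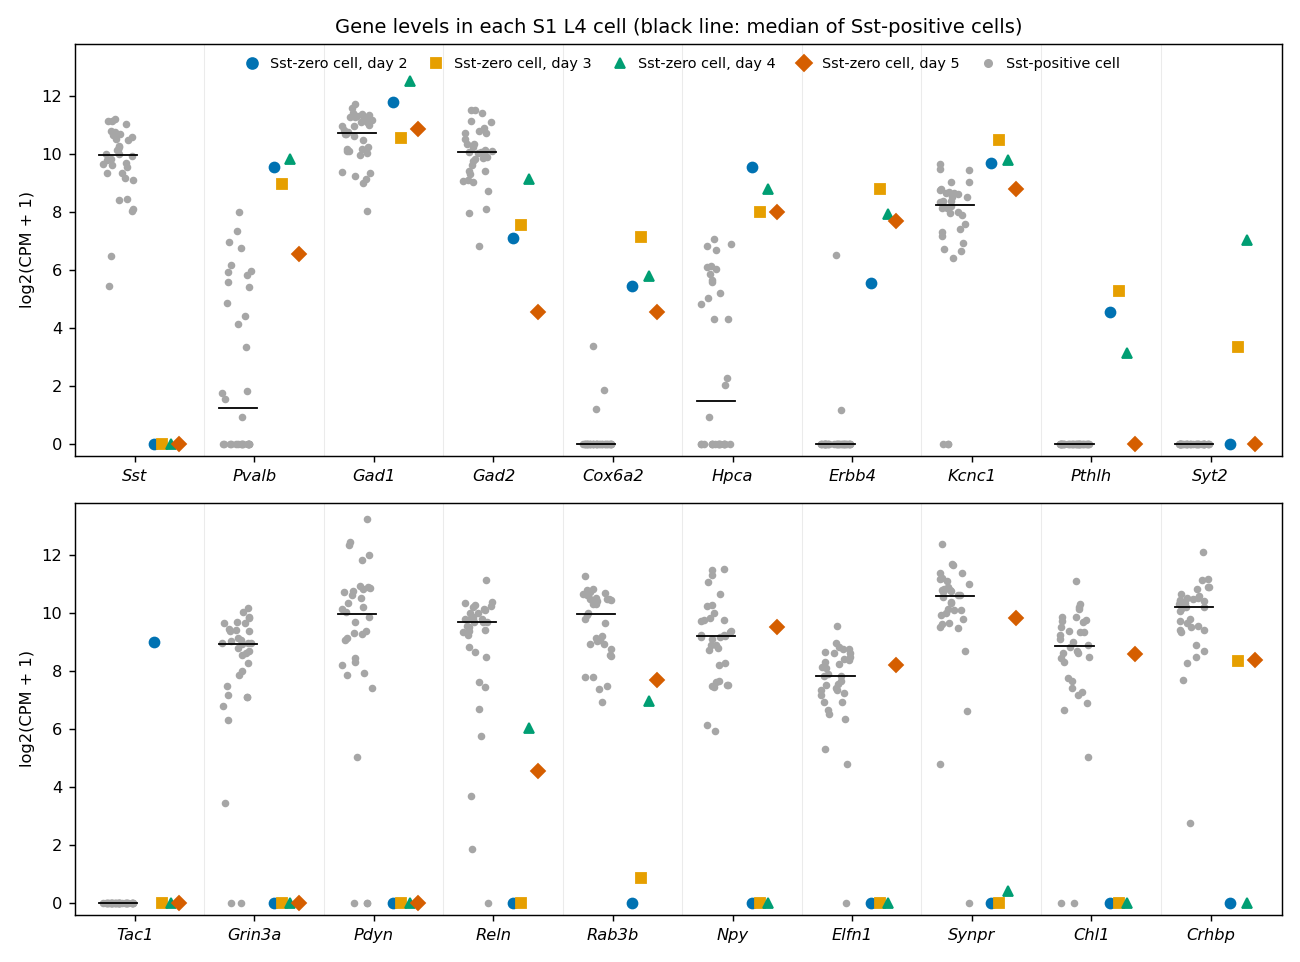
Levels of 20 genes as log2(CPM + 1) in each of the 34 Sst-positive (grey, black line at the median) and 4 Sst-zero (coloured by recording day) S1 L4 cells. Cox6a2 and Hpca do not overlap between the groups, Grin3a and Pdyn are at 0 in all 4 Sst-zero cells, and Npy, Elfn1 and Synpr are high in the day 5 cell and at or near 0 in the other 3.

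Among 16 channel genes of fast firing, all past the filter, 2 were higher (Kcnc1 and Kcnab1) and 1 lower (Kcnc4), with a median difference of 0.59. Within days Kcnc1 alone passed the limit. Their summed level was 5507, 5552 and 5294 CPM in the cells of days 2, 3 and 4, above the highest Sst-positive S1 L4 cell at 4588 CPM. The day 5 cell had 1951 CPM, below the Sst-positive S1 L4 median of 2794. A Sst-positive V1 L4 cell of day 2 had 5958 CPM, above all 4 Sst-zero cells. Kcnab1, an auxiliary subunit of Kv1 channels, had 985, 438, 1056 and 0 CPM against 0 to 1677 (median 38.6). Of 15 release genes past the filter, none was higher and 2 were lower (Cplx2 and Unc13c, also within days), with a median of 0.17.

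Of 14 genes of mitochondrial energy supply, 4 were higher and none lower (Ppargc1a, Cox6a2, Cox6a1 and the complex I subunit Ndufv1). The median difference from all Sst-positive S1 L4 cells was 1.70, and the list medians against same-day cells had an SD of 0.94 over days. Within days Cox6a1 was not past the limit, and Cox6a2 passed the filter only through the Sst-zero cells. Their summed level was 11012, 5915, 13204.5 and 5201 CPM against 1705 to 11404 (median 5971), so the cells of days 3 and 5 were near the Sst-positive median. Of 4 genes of the perineuronal net past the filter, Bcan and Hapln4 were higher. Bcan, the proteoglycan brevican, had 181, 550 and 505 CPM on days 2, 3 and 4 and 205 CPM on day 5, against 0 to 576 (median 72.2). Of the 4 intermediate filament genes, Nefh and Ina were higher, with a list median of 1.38.

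GABA-A receptor subunits split, with 3 of 11 higher, among them Gabrg3 and Gabrd, and 2 lower, among them Gabra2. Within days only Gabrg3 was higher and none was lower. Gabra2 was at 0 in all 4, and in 13 of the 34 Sst-positive cells it was counted. Summed over the list, days 2, 3 and 4 gave 3816, 3622 and 3716 CPM, the Sst-positive S1 L4 cells at most 3591, and the day 5 cell 1316. Higher sums were found in Sst-positive cells elsewhere, such as 8297 CPM in an S1 L5 cell and 3909 CPM in a V1 L5 cell.

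Of 13 genes known from somatostatin interneurons other than Sst, 10 passed the filter, 8 were lower and none was higher. Within days 4 were lower. With no filter 8 of the 13 were lower, with a median of -4.07. The median difference of the 10 was -5.25, or -3.85 with genes at 0 in all 4 cells taken at the limit for a count of 0. Detected members numbered 1, 2, 0 and 6 in the cells of days 2, 3, 4 and 5, against 4 to 10 (median 7) in the Sst-positive cells. Summed levels were 113.1, 490.3, 0 and 2215 CPM against 812 to 9453 (median 3846). The cells of days 2, 3 and 4 thus lay below all Sst-positive S1 L4 cells, and the day 5 cell lay among them. A Sst-positive V1 L5 cell had 369 CPM, below the day 3 cell.

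Grin3a (chr4:49661611-49845744), an NMDA receptor subunit enriched in somatostatin cells, had 0 counts in all 4 Sst-zero cells. It was counted in 32 of 34 Sst-positive cells, with a median of 491 and a highest value of 1159 CPM. Pooled over cells, it was at least 926-fold lower, against the limit for a count of 0 over the 4 cells (0.545 CPM). Cbln4 (a secreted synapse organiser) and the heparanase gene Hpse were also at 0 in all 4 and were counted in 23 Sst-positive cells each.

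Pdyn (chr2:129686565-129699844), the precursor of dynorphin peptides, was at 0 in all 4 cells as well. It was counted in 31 of 34 Sst-positive S1 L4 cells, with a median of 1004 and a highest value of 9844 CPM, and was at least 3141-fold lower. Among Sst-positive cells elsewhere it was counted in 35 of 42 V1 L4, 6 of 17 V1 L5 and 12 of 16 S1 L5 cells. Together with Sst, Grin3a and Adcy2, an adenylyl cyclase, it made up the 4 genes that were counted in at least 30 Sst-positive cells and in no Sst-zero cell. Adcy2 had a Sst-positive median of 143.4 CPM. Of the 241 genes past the filter that were counted in every Sst-positive cell, only Sst was at 0 in all 4.

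Npy (chr6:49822710-49829507), the neuropeptide Y gene, had 0 CPM on days 2, 3 and 4 and 736 CPM on day 5. All 34 Sst-positive cells had Npy reads, from 60.4 to 2947 CPM (median 592). Elfn1 (chr5:139907943-139974722), a synaptic adhesion protein that shapes excitatory input onto somatostatin cells, followed the same division. It had 0, 0, 0 and 293 CPM against 0 to 761 (median 228), with reads in 33 of 34 cells. Crhbp, which binds corticotropin-releasing hormone, had 0, 327, 0 and 335 CPM against 5.81 to 4447 (median 1185).

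Of 5 neuropeptide genes past the filter, Npy and Pdyn were lower and Cck was higher, and within days only Pdyn was past the limit. Cck had 198, 21.7, 0 and 91.2 CPM against at most 57.8 CPM in 12 Sst-positive cells. All 13 genes that process and store peptides passed the filter, Cadps2 only through the Sst-zero cells. Of these 1 was higher (Cadps2) and 2 were lower (the convertase Pcsk1 and Vgf), with a median of 0.21, and none was past the limit within days.

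Transcription factors of the medial ganglionic eminence lineage were lower or within the limit, with 6 of 12 lower, among them Lhx6, Satb1, Maf, Dlx2 and Npas1, and none higher. Lhx6, which both interneuron classes need for their development, had 158.05, 3.34, 0 and 172.6 CPM against 0 to 675 (median 204). Maf had 0, 0, 6.23 and 0 CPM against 0 to 303 (median 50.1). Within days only Lhx6 and Maf were lower. The summed level was 1661, 1200.2, 1640.1 and 2273 CPM against 682 to 3454, within the Sst-positive range in all 4 cells. Of 16 glutamate receptor genes past the filter, 5 were lower, among them Grin1, Grin3a and Grik3, and none was higher. Within days 4 were lower, and Grin1 was not among them.

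The 14 genes in the names of reference Pvalb types were read as a list. Of these 5 passed the filter, 1 was higher (Akr1c18), 2 were lower (Reln and Tpbg), and the median was -0.04. Within days only the 2 lower genes were past the limit. Reln (chr5:21884454-22344702), the secreted protein reelin, had 0, 0, 65.4 and 22.8 CPM against 0 to 2272 (median 823). Itm2a had 251 CPM in the day 3 cell and 0 in the other 3, against reads in 1 Sst-positive cell at 1.53 CPM. Calb1 had 113.1, 0, 0 and 661 CPM, and Th had no read in any of the 38 cells.

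**Figure D3:**
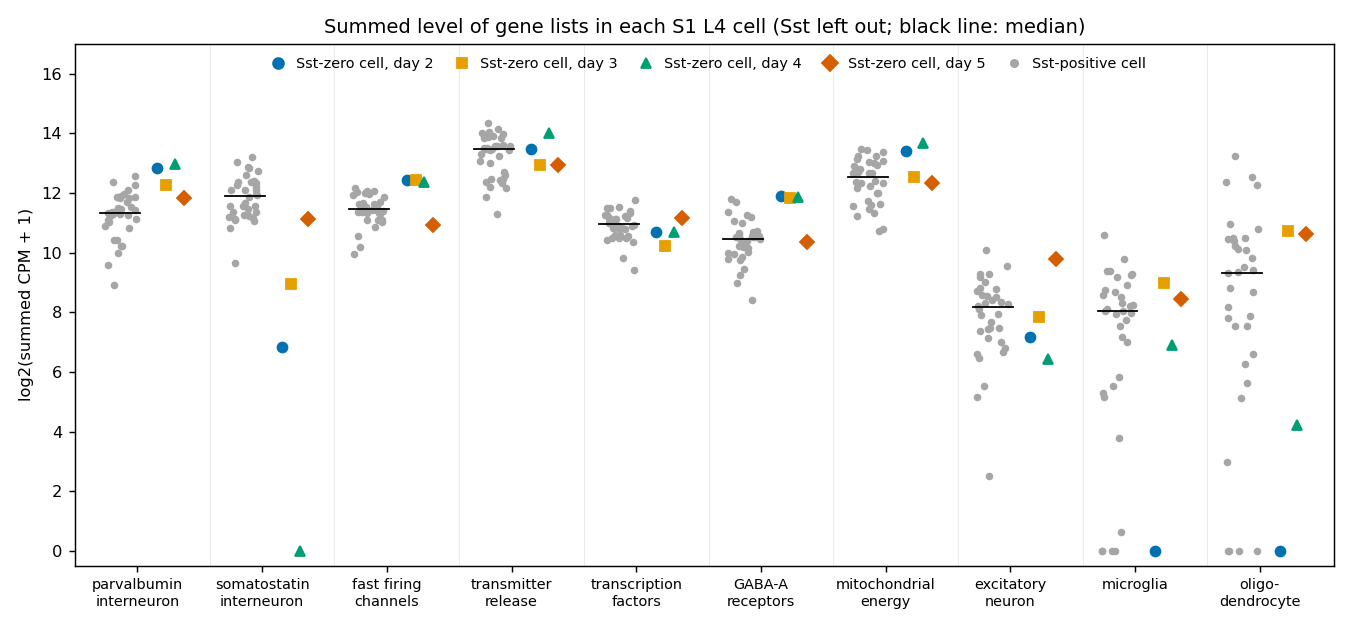
Summed CPM of 10 gene lists without Sst, as log2(summed CPM + 1), in each Sst-positive (grey, black line at the median) and Sst-zero (coloured by recording day) S1 L4 cell. The Sst-zero cells of days 2, 3 and 4 lie above every Sst-positive S1 L4 cell for the fast firing channels and GABA-A receptors. They lie below every one for the somatostatin list, and the day 5 cell lies among the Sst-positive S1 L4 cells in all 3. Cells of other areas and layers are not shown.

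The 15 genes with the largest positive difference among those with the same sign on each day were Erbb4 (7.27), Alcam (6.45), Pvalb (6.18), Drd1a (6.01), Hpca (5.89), Dlg1 (5.73), Tmem108 (5.72), Bbx (5.66), Cox6a2 (5.56), Kitl (5.53), Kcnh7 (5.49), 2610002J02Rik (5.46), Gm13629 (5.40), Inpp5j (5.33) and Fam81a (5.32). Alcam, a cell adhesion molecule, had 56.6, 184, 335 and 143.3 CPM, with reads in 6 of 34 Sst-positive cells, up to 155.1 CPM. The dopamine D1 receptor gene Drd1a had 132.01, 182, 73.0 and 117.2 CPM, with reads in 6 of 34 cells, up to 204 CPM. Dlg1 (the synaptic scaffold SAP97) had 207, 38.4, 118.4 and 120.5 CPM, with reads in 11 of 34 cells, up to 111.7 CPM. For each of these 3 genes at most 2 Sst-positive cells reached the lowest Sst-zero cell.

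The kit ligand gene Kitl had 213, 189, 101.1 and 3.26 CPM against at most 50.1 CPM, and its day 5 value is a single count. Inpp5j, an inositol phosphatase, had 299.9, 930, 811 and 404 CPM against 0 to 439 (median 30.8). Gm13629 had 118.5, 428, 320 and 84.7 CPM against at most 123.8 CPM, but its exons overlap those of the sodium channel gene Scn9a on the opposite strand. Tmem108, Kcnh7 and Inpp5j overlap Gm16252, Gca and Pla2g3 in the same way.

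Among the 15 genes with the largest negative difference were Sst (-9.70, by selection), Pdyn (-9.06), Grin3a (-8.06), Synpr (-7.40), Sema6d (-6.55), Cacna1e (-6.29), Chl1 (-6.11), Reln (-6.07), Adcy2 (-5.97), Rab3b (-5.71), Crhbp (-5.63), Akap5 (-5.61), Cntn4 (-5.24) and Thsd7a (-5.18). Cacna1e, the R-type calcium channel, was at 0 in all 4 and at a median of 140.97 CPM in the Sst-positive cells, with reads in 29 of 34. Sema6d, a semaphorin, had 8.35 CPM in the day 3 cell and 0 in the other 3, against reads in 33 of 34 cells (median 238 CPM). The vesicle protein Rab3b had 0, 0.835, 124.2 and 208 CPM against 122.7 to 2475 (median 998). Exons of Reln, Adcy2 and Rab3b overlap those of Gm10475, Gm35161 and 8030443G20Rik.

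For Synpr, Chl1 and Cntn4 the negative mean came mostly from the cells of days 2, 3 and 4. Synpr, the vesicle protein synaptoporin, had 0, 0, 0.346 and 915 CPM against 0 to 5390 (median 1543). Chl1, a close homologue of L1, had 0, 0, 0 and 384 CPM against 0 to 2185 (median 465). The contactin Cntn4 had 0, 0, 0 and 205 CPM. In each the day 5 cell lay within the Sst-positive range and at least 1 of the other 3 had no read.

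**Figure D4:**
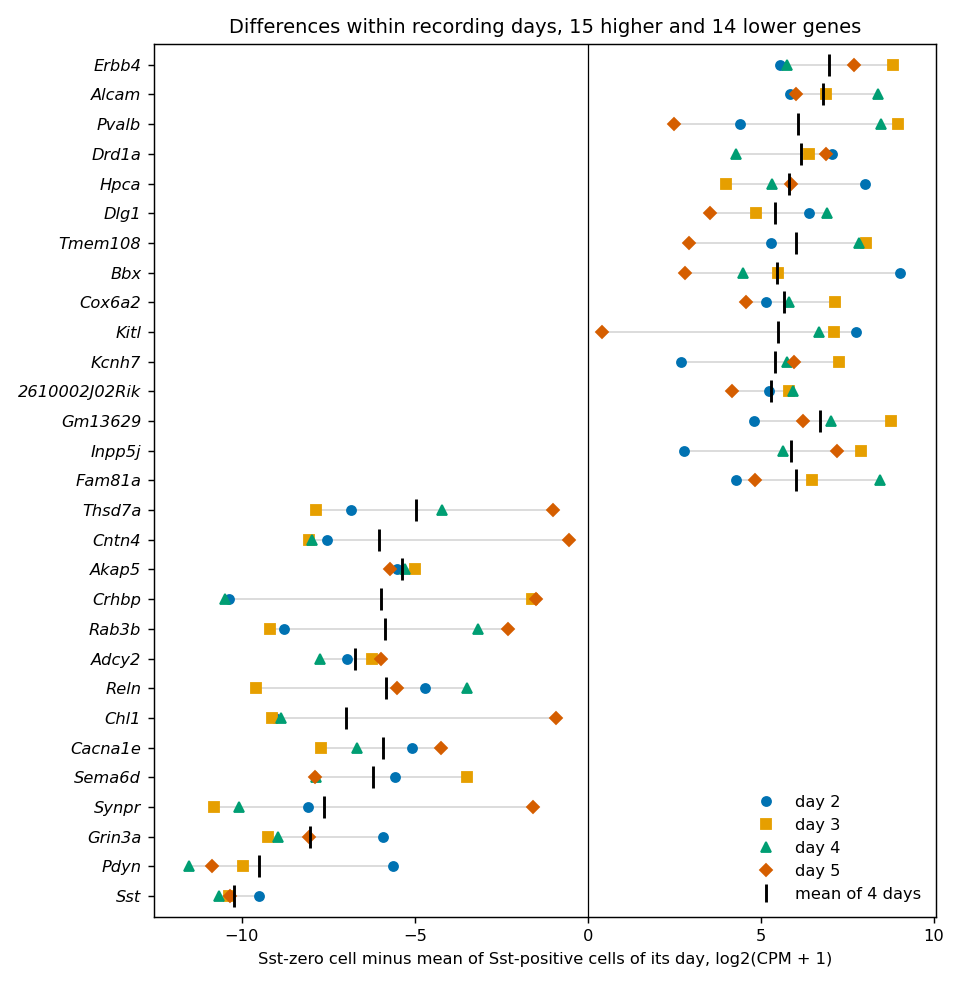
Difference of each Sst-zero cell from the mean of the Sst-positive S1 L4 cells of its recording day, on the log2(CPM + 1) scale, for 15 higher and 14 lower genes with the largest differences, with a black mark at the mean of 4 days. All points of a gene lie on the same side of 0 because that was part of the rule, and the day 5 cell is nearest to 0 for 8 of the 14 lower genes.

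Each Sst-zero cell held genes above every Sst-positive S1 L4 cell, 348, 332, 216 and 345 genes on days 2, 3, 4 and 5. These were 3.31, 3.16, 2.06 and 3.29% of those past the filter. Any single cell tops the others for some genes by cell-to-cell spread, and the same count was not made for Sst-positive cells. The shares are thus not read as particular to the Sst-zero cells. The 5 that stood highest above in the day 2 cell were Tcap, Hpca, Klhdc8b, Myo1e and Endov. In the day 3 cell they were Tcap, Cox6a2, Cntnap4, Lrp1b and Parm1, and in the day 4 cell Tcap, Kcnip2, Cox6a2, Cntnap4 and Parm1. In the day 5 cell they were Dnajc24, Nme5, Trpt1, Ttc39a and Sncaip, none of them among those of the other 3 cells.

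Tcap (chr11:98383811-98384953), which encodes the sarcomere protein telethonin, had 170.6, 155.4 and 229 CPM in the cells of days 2, 3 and 4, from 190, 186 and 661 counts, and 0 on day 5. It had no read in any of the 34 Sst-positive cells, so it passed the filter through the Sst-zero cells alone, and was at least 3014-fold higher over the pooled cells. With no filter, 5 of the 15596 genes with a read in the 38 cells had reads in at least 3 Sst-zero cells and in no Sst-positive cell. Among them were Tcap, Pthlh, B3gat1 and Shisa9, which were picked out after their values were seen. Kcnip2, an auxiliary subunit of Kv4 channels, had 324, 520.3, 1483 and 0 CPM against at most 149.1 CPM. The mucin-like protein gene Parm1 had 388, 616, 418 and 0 CPM, with at most 105.8 CPM among 4 Sst-positive cells with reads. Cntnap4, a contactin-associated adhesion protein, had 26.04, 779, 338 and 0 CPM against at most 83.9 CPM. All 4 genes were shared by 3 cells and absent from the count of the day 5 cell, where a count of 0 allows 9.77 CPM.

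Of the 10502 genes past the filter, leaving out the day 5 cell raised the number with no overlap from 2 to 13 above and from 1 to 3 below. Such numbers grow in part because 3 cells need to agree in place of 4. Among the 13 were Cox6a2, Hpca, Pvalb, Kcnc1, Kcnip2, Kitl, Parm1, Tcap, Rora, Lrrc4c, Chchd10 and Ddx23, and the 3 were Sst, Npy and Cacna2d3. Leaving out any other Sst-zero cell gave 5 above and 1 below. Cox6a2 and Hpca were among the genes above in every case.

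Likeness was measured as Pearson r of log2(CPM + 1) over 999 variable genes without Sst. Cells share library preparation and differ in depth, so r is a description. Pairs of Sst-zero cells had r of 0.398 to 0.611 (mean 0.471, 6 pairs), pairs of Sst-positive S1 L4 cells a mean of 0.410 (SD 0.0932, 561 pairs), and mixed pairs a mean of 0.390. The cells of days 2 and 4 had r of 0.611, and each was the other's nearest among all kept cells of other days. The cell of day 3 was nearest to that of day 4, at 0.517. Among the 5 nearest cells of other days, only 1, 2, 1 and 0 were Sst-zero for the cells of days 2, 3, 4 and 5. The rest were Sst-positive.

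The day 5 cell had the same mean r, 0.413, with the other Sst-zero cells and with the Sst-positive S1 L4 cells. Its nearest cell was a V1 L4 cell of day 7, at 0.534, and the best of the Sst-zero cells ranked 47 of 98. It was thus apart from the other 3 in this measure too. Like them it had reads of Cox6a2, Hpca, Erbb4 and Pvalb and none of Grin3a or Pdyn. All but Pvalb were singled out above for a pattern held by every Sst-zero cell, so nothing is read from this. Reads of Pvalb and of Hpca were also found in 18 of 34 Sst-positive S1 L4 cells each.

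**Figure D5:**
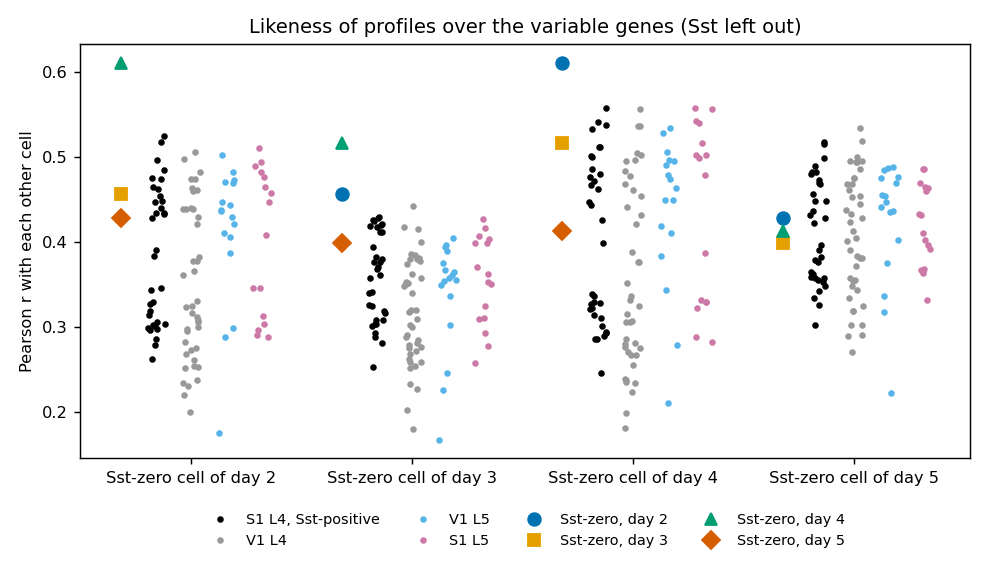
Pearson r over 999 variable genes between each Sst-zero cell and every other kept cell, with the other Sst-zero cells as large symbols and the remaining cells as dots coloured by area and layer. The cells of days 2, 3 and 4 have another Sst-zero cell as their highest value (0.611, 0.517 and 0.611), and the day 5 cell does not.

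Markers of other cells that a pipette can pick up were read in the same libraries. Excitatory neuron genes summed to 143.7, 226, 86.2 and 876 CPM against 4.69 to 1081 (median 288), and oligodendrocyte genes to 0, 1701, 17.7 and 1567 CPM against 0 to 9702 (median 644). The day 5 cell was the highest of the 4 in the first list. Oligodendrocyte precursor genes were at 0 in the first 3 and at 228 CPM in the day 5 cell, above the Sst-positive maximum of 167.3 CPM. Astrocyte genes summed to 673, 980 and 355 CPM on days 2, 3 and 4 and 394 CPM on day 5, against 0 to 2516, and microglial genes to 0, 502, 119.7 and 352 CPM, against 0 to 1526.

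The number of detected members of these lists was 1, 4, 3 and 5 of 9 for excitatory neurons, 0, 2, 1 and 4 of 8 for oligodendrocytes, 2, 3, 2 and 4 of 8 for astrocytes and 0, 3, 3 and 2 of 8 for microglia. The list members at 0 in all 4 cells were Slc17a6, Neurod6 and Tbr1 (excitatory), Mog, Mag, Cldn11 and Opalin (oligodendrocyte), Pdgfra and Cspg4 (oligodendrocyte precursor), Aqp4, Gfap, Aldh1l1 and Gja1 (astrocyte), and Cx3cr1, P2ry12, Csf1r and Tmem119 (microglia). Every other member of these lists had reads in at least 1 of the 4 cells. Among these were Slc17a7, Mbp, at up to 1639 CPM, and Gpr17, which made up the whole precursor sum of the day 5 cell.

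Among genes of other interneuron classes, Vip had no read in any of the 38 cells. Cck carried the whole list of vasoactive intestinal peptide cells in the Sst-zero cells (198, 21.7, 0 and 91.2 CPM), against a sum of 0 to 57.8 CPM (median 0) in the Sst-positive cells, so those of days 2 and 5 lay above every Sst-positive cell. Tac2, Htr3a, Prox1, Nr2f2, Sp8 and Crispld2 of this list were at 0 in all 4. The list of Lamp5 cells summed to 0, 0, 0.346 and 26.1 CPM against 0 to 294, and endothelial and blood genes to 0 in all 4. Mbp, the myelin basic protein gene, was lower over all cells (-2.25) but had a within-day difference of 0.29 ± 3.71. Of 10 immediate early and stress genes past the filter, Atf3 and Ddit3 were higher and Arc was lower, within days only Ddit3 was past the limit, and Atf3 had 387, 1513, 131.5 and 681 CPM against 0 to 959 (median 60.2). The part of RNA from other cells, of depth and of the state of the cells in these differences was not tested. In a drawn sample of cytosol, a gene that is not transcribed and a transcript that was not captured cannot be told apart.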

How the data were processed

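RNA was drawn from single recorded cells, amplified by a protocol built on Smart-seq2 that carries neither molecular identifiers nor strand, and sequenced as 75 bp single reads. The authors aligned the reads to mm10 with STAR (2.4.2a per the submitters' processing notes, which also list bcl2fastq 2.20) and deposited raw read counts per gene (counter not given in the sources used here) and RPKM values computed with rpkmforgenes and RefSeq models. The count table was used here, with the deposited RPKM table as an alternative. All samples have a column in both tables, and area and layer came from the labels.

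The 24490 entries were summed to 23998 symbols. CPM used all counts of a cell. Rn45s took 4.57% of the counts of the 38 cells. Totals ranged from 307046 to 3295232 counts, and limits for a count of 0 cover counting error only. Genes past the filter had at least 32 counts in at least 3 of the 38 cells, and values were log2(CPM + 1). A gene was called at a mean difference of 2 or more in size. Variable genes followed the rule of the study for 1000 genes (slope 1.5, offset 0.02). Named genes are Pvalb, Sst and Gad1, members of the lists, the 15 largest differences each way among genes with the same sign within each of the 4 days, and for each Sst-zero cell the 5 genes highest above all Sst-positive cells. Genes that lost or gained overlap when a cell was left out, and those at 0 in a whole group, were named after their values were seen. The members, lists and rules were chosen with earlier results of these data known.

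Alternatives were a pseudocount of 10, edgeR TMM scaling, thinning to 250000 reads (seed 1), the RPKM values, Rn45s left out, no filter on low counts, the first recording series alone, same-day cells alone, and leaving out each Sst-zero cell. Scripts were tested on simulated data. Coordinates are from GENCODE M21 (GRCm38). The scripts ran in Python 3.11.15 with pandas 2.3.3 and SciPy 1.17.1, and in R 4.3.3 with edgeR 4.0.16. Values of some genes that the rules name are not reported here. Electrophysiology, morphology and reference types were not analysed here.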

Additional observations from a re-analysis of the deposited data

Results flagged for a closer look

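Among 50 gene values looked at over the 4 Sst-zero cells, 12 had a cell set apart from the other 3 by Dixon's ratio at the 95% level. Chance sets apart about 1 in 20 groups of 4 graded values. Values at 0 in 3 cells always meet the limit, even with 1 count in the remaining cell, so that rate does not apply to them. Most of the 12 were of this kind. Values are log2(CPM + 1), and no cause was tested.

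The day 5 cell stood above the other 3 for 7 genes, most of which are high in Sst-positive cells. These were Synpr at 9.84, Npy at 9.53, Chl1 at 8.59, Elfn1 at 8.20, Cntn4 at 7.69, Thsd7a at 3.81 and Akap5 at 2.09. The Akap5 value is 1 count.

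The day 3 cell stood above the others for Itm2a at 7.98, for the peptide gene Cort at 4.21 and for Sema6d at 3.23, and below them for Slc32a1 at 1.42. The day 2 cell stood above the others for Tac1 at 9.01.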

How the results depend on the processing

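No paired analysis was possible because replicate numbers follow accession order and pair nothing. Cells were matched by recording day only, as a description with no test. The shares of the 10502 genes past the limit of 2 moved most with the scale. With a pseudocount of 10, 1.92% were higher and 1.01% lower, and within days 1.53 and 1.20%. With the RPKM values 6.83% were higher and 3.61% lower. Leaving out each Sst-zero cell in turn gave 8.55 to 10.98% lower, within days 7.26 to 9.52% higher and 6.63 to 8.25% lower, and 5 to 13 genes above and 1 to 3 below every Sst-positive cell. Only 899 to 931 of the 1194 higher genes remained. The same-day shares and the numbers with no overlap grow in part because 3 cells need to match in place of 4. Against the first recording series alone, which holds fewer Sst-positive cells, 9 of the 10502 genes did not overlap above and 2 below.

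The median difference of the Pvalb type name genes ranged from -1.27 to 0.37 over the cells left out, of the excitatory neuron genes from -0.97 (without the day 5 cell) to 1.30 and of the peptide processing genes from -0.0063 to 0.57. The mean r of Sst-zero with Sst-positive cells was 0.433 by Spearman and 0.423 with 500 genes. Mbp turned to 0.29 against same-day cells. Of the 88 named genes examined, a pseudocount of 10 moved 26 differences by over 1 SD over days, the RPKM values 12, same-day cells 3 and leaving out the day 5 cell 1, while TMM scaling, thinning and leaving out Rn45s moved none, and no other direction past the limit was reversed. The depth of 307046 counts limits what a count of 0 shows in the day 5 cell.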
